A study of Mus musculus with 16 samples.

Results

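The comparison described here is that of Arid1a KO with WT mouse liver when both had received a nuclear receptor agonist. It rests on 4 of the 16 libraries of the series, 2 from Arid1a KO livers and 2 from WT livers, and was described across the 17831 genes that passed a filter on low counts. Both groups had received tamoxifen, both carry the treatment label NR1L3 agonist (TC), and the Arid1a KO livers were taken at 30 days. The WT agonist livers are given as 9 days in their titles and as 30 days in their other labels, and were treated as 30-day livers. For reference the series holds WT and Arid1a KO livers given DMSO as vehicle, 2 of each at 30 days and 2 of each at 9 days after tamoxifen. It also holds 2 Arid1a and Arid1b double KO livers labelled DMSO and 9 days, and 2 tumours labelled Arid1a KO/BcatEXON. The double KO livers entered the fits, where all groups share the estimate of spread. The tumours entered only an alternative fit. The labels used here give neither the allele nor the Cre driver, and neither the sex nor the age of the mice. RNA came from whole liver tissue, although the labels name hepatocytes as the cell type. The spelling NR1L3 is not a receptor symbol. Both NR1I3, the constitutive androstane receptor CAR, and NR1H3, the oxysterol receptor LXR alpha, are close to it, the labels do not name the compound, and which receptor was meant is not settled here.

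ARID1A is the large DNA-binding subunit of the BAF chromatin remodelling complex, which uses ATP to slide and evict nucleosomes and so opens enhancers and promoters to transcription factors. CAR is a nuclear receptor of hepatocytes that, once activated by a drug or agonist, induces cytochromes P450, conjugating enzymes and transporters, with Cyp2b10 as its standard target in mice, and also drives hepatocytes into the cell cycle. LXR alpha senses oxysterols and induces genes of cholesterol efflux and fatty acid synthesis. Adult hepatocytes are otherwise mostly quiescent and differ along the lobule, with separate gene programmes around the central and the portal vein, and many of their genes are set by the male or female pattern of growth hormone.

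The 4 agonist livers showed a strong Cyp2b10 signal irrespective of genotype. Expression values are CPM, the counts of a gene relative to the library's total scaled by TMM, and changes are log2 fold changes of Arid1a KO over WT with their standard error (SE) from edgeR's quasi-likelihood test. Cyp2b10 stood at 1871 and 1816 CPM in the Arid1a KO livers and at 2106 and 2018 CPM in the WT livers (replicates 1 and 2 throughout), and the difference did not pass (log2 -0.16, SE 1.86, edgeR adjusted p = 0.975). Arid1a was at 81.7 and 67.9 CPM in Arid1a KO and 93.1 and 74.4 CPM in WT, which overlap, with a log2 of -0.16 (SE 0.18, edgeR adjusted p = 0.674). A count over the whole gene includes exons outside any deleted part, so it checks nothing about the genotype label. Arid1b, the alternative subunit, was at 46.4 and 38.6 CPM against 46.7 and 46.8 CPM (log2 -0.14, SE 0.28, edgeR adjusted p = 0.828). Depth in M counts (units of 1e6) was 13.2 and 29.8 in Arid1a KO and 9.38 and 27.9 in WT, so that 3 counts equal between 0.0983 and 0.359 CPM. The correlation of log2 CPM within each of these groups was 0.970 and 0.971. Xist had between 1 and 6 counts in each of the 4 livers, and the summed level of 4 Y-linked genes was 206 and 226 CPM in Arid1a KO and 263 and 226 CPM in WT. The 19 measured genes of the circadian clock summed to 636 and 1439 CPM in Arid1a KO and to 1434 and 2383 CPM in WT, lower in replicate 1 of both groups, and 0 of them passed in edgeR (1 with the replicate number as a block), 3 having an unadjusted p under 0.05 and 1 passing in DESeq2.

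Under the agonist 543 genes were higher and 340 lower in Arid1a KO than in WT at an edgeR adjusted p under 0.05. These 883 genes are 4.95% of those tested, with 3.05% higher and 1.91% lower, and 3827 of the 17831 genes had an unadjusted p under 0.05. These shares are the base for each count of list members given below. The median log2 change of all 17831 genes was -0.01, and 49.6% were positive. The 2 libraries of one group lay apart from the 2 of the other for 49.9% of all genes tested, 26.2% higher and 23.7% lower, and for each of the 883. Among the rising genes were members of the mitosis, NRF2, p53 and interferon lists, and among the falling genes were members of the pericentral and male-biased lists. How many genes passed depended on each of the 4 libraries. Without Arid1a KO replicate 1 the counts were 110 higher and 52 lower, and without Arid1a KO replicate 2 they were 334 and 137. Without WT replicate 1 they were 130 and 122, and without WT replicate 2 they were 22 and 52. The 883 genes kept their direction in each of these fits, which was fixed in advance because their groups did not overlap. In such a fit the 1 library left in a group takes its spread from the other groups.

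**Figure D1:**
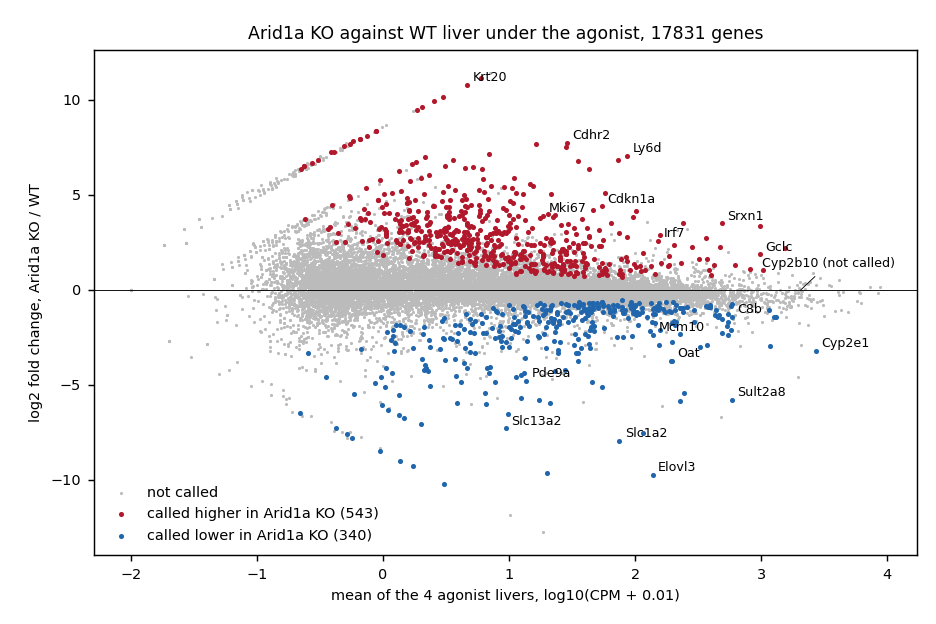
Each point is 1 of the 17831 genes, with its mean level in the 4 agonist livers on a log10 scale (horizontal) and its log2 fold change of Arid1a KO over WT (vertical). Genes that passed are red where higher (543) and blue where lower (340), and Cyp2b10 lies near 0 at a high level.

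The 15 largest rises were in genes that were below 2 CPM in both WT livers. Krt20, an intestinal keratin on chromosome 11 at 99428403 to 99438150 of GRCm38, had 11.2 and 7.34 CPM in Arid1a KO and no count in WT, which is at least 96.4-fold higher against a floor of 3 counts over the WT group (edgeR adjusted p = 0.00373). Hsd3b1, a steroid dehydrogenase of adrenal and gonad, had 5.64 and 6.26 CPM against no count (at least 68.1-fold higher). Pnliprp2, a pancreatic lipase-related protein, had 7.87 and 2.26 CPM against no count (at least 45.6-fold higher). So in these 3 genes the WT libraries held nothing and the Arid1a KO libraries held a modest level. Cdhr2, a protocadherin of brush border microvilli, was at 70.5 and 43.4 CPM against 0.239 and 0.276 CPM (log2 7.71, SE 0.79, edgeR adjusted p = 0.0018). Ly6d, a surface protein of lymphoid and epithelial progenitors, was at 208 and 133 CPM against 1.91 and 0.908 CPM (log2 7.06, SE 1.45, edgeR adjusted p = 0.0218). Sprr1a, a cornified envelope protein, was at 72.5 and 67.5 CPM against 0.717 and 0.592 CPM (log2 6.77, SE 0.91, edgeR adjusted p = 0.00573). Each of these was high in both Arid1a KO livers. For Elovl7, a fatty acid elongase, replicate 1 was higher than replicate 2, with 48.1 and 16.2 CPM against 0.239 and 0.118 CPM in WT. Slc7a11, the cystine importer, and Gpx2, a glutathione peroxidase, also differed within Arid1a KO, with 98.3 and 14.7 CPM for Slc7a11 and 10.4 and 1.7 CPM for Gpx2. Ggt1, which cleaves extracellular glutathione, rose from 3 counts in WT, a ratio of 141 with a counting interval of 48.1 to 687. The other genes of the 15 largest rises were Cbr3, Ccnb1, Cenpf, Hormad2 and Spire2, of which the first 3 are described with their groups. Hormad2, a meiotic chromosome protein, was at 4.87 and 3.67 CPM and Spire2, an actin nucleator, at 12.4 and 5.21 CPM, from 1 and 3 counts in WT. The model of Gpx2 overlaps that of Fntb on the other strand, and the strand setting of the counting is not stated in the labels or notes used here. Of these 15 genes 8 passed without Arid1a KO replicate 1, 15 without Arid1a KO replicate 2, 7 without WT replicate 1 and 2 without WT replicate 2.

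The 15 largest falls included solute carriers, such as Slc1a2 and Slc13a2, and enzymes, such as Elovl3 and Hsd3b5, and also the receptor Adrb3 and the ephrin Efna3. Slc1a2, a glutamate transporter of pericentral hepatocytes on chromosome 2 at 102658659 to 102790784, was at 0.696 and 0.524 CPM in Arid1a KO and 145 and 153 CPM in WT (log2 -7.97, SE 0.47, edgeR adjusted p = 6.3e-05). Elovl3, an elongase of very long fatty acids on chromosome 19 at 46131897 to 46135694, was at 0.348 and 0.295 CPM against 468 and 80.8 CPM (log2 -9.74, SE 2.24, edgeR adjusted p = 0.0333). Hsd3b5, a male-biased steroid dehydrogenase, was at 2.37 and 0.36 CPM against 400 and 57.7 CPM (log2 -7.56, SE 1.30, edgeR adjusted p = 0.0111). For Slc1a2 the WT libraries were alike, and for Elovl3 and Hsd3b5 WT replicate 1 was several times WT replicate 2. Sult2a8, a bile acid sulfotransferase, fell from 1080 and 1222 CPM to 11.2 and 29.9 CPM. Slco1a1, an organic anion importer, fell from 639 and 306 CPM to 16.9 and 4.91 CPM. Slc13a2, a citrate and succinate carrier, was at 0.139 and 0.0983 CPM against 11.2 and 26 CPM (log2 -7.31, SE 0.79, edgeR adjusted p = 0.002). Sult2a8 and Slco1a1 were still detected in Arid1a KO. Susd4, a complement regulator, was at 0.279 and 0.295 CPM against 9.44 and 15.6 CPM (log2 -5.43, SE 0.65, edgeR adjusted p = 0.00288). Pde9a, a cGMP phosphodiesterase, was at 0.975 and 0.884 CPM against 37.9 and 14.8 CPM (log2 -4.81, SE 0.55, edgeR adjusted p = 0.00219). Sdr9c7, a short-chain dehydrogenase, was at 2.44 and 3.37 CPM against 112 and 63.1 CPM (log2 -4.89, SE 0.61, edgeR adjusted p = 0.00336). The remaining genes of the 15 largest falls were Adrb3, Acsm2, Mmd2, Efna3, Ugt2b38 and Slc15a5. Their highest level in an Arid1a KO liver was 1.34 CPM, of Slc15a5, and their lowest in a WT liver was 4.34 CPM, of Efna3. The models of Elovl3 and Pitx3, of Hsd3b5 and Zfp697, and of Slc1a2 and an antisense gene overlap, and Hsd3b5, Sult2a8, Slco1a1 and Ugt2b38 belong to families whose near-identical members can share reads. Of these 15 genes 8 passed without Arid1a KO replicate 1, 8 without Arid1a KO replicate 2, 12 without WT replicate 1 and 9 without WT replicate 2.

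Genes of mitosis were higher in Arid1a KO under the agonist. Of 30 measured members of the list 26 rose and 0 fell, against 3.05% of all genes called higher, and their median log2 change was 3.53. Mki67, the usual marker of cycling cells, was at 44.5 and 25.4 CPM in Arid1a KO and 2.87 and 2.01 CPM in WT (log2 3.88, SE 0.66, edgeR adjusted p = 0.0104). Ccna2, the cyclin of S phase and G2, was at 14.3 and 8.29 CPM against 0.837 and 0.947 CPM (log2 3.63, SE 0.54, edgeR adjusted p = 0.00636). Tpx2, a spindle assembly factor, was at 14.6 and 10.2 CPM against 0.239 and 0.395 CPM (log2 5.15, SE 0.81, edgeR adjusted p = 0.00833). In these genes every Arid1a KO value was at least several times every WT value, and replicate 1 was the higher Arid1a KO liver. Top2a, the topoisomerase that untangles sister chromatids, was at 24.8 and 14.8 CPM against 1.55 and 1.5 CPM. Aurkb, a kinase of the chromosomal passenger complex, was at 4.94 and 3.5 CPM against 0.359 and 0.395 CPM. Foxm1, the transcription factor of the G2/M programme, was at 9.75 and 6.03 CPM against 0.598 and 1.18 CPM (log2 3.04, SE 0.62, edgeR adjusted p = 0.0209). Cyclin B1 (Ccnb1), the partner of Cdk1 at mitotic entry, had 8.91 and 5.31 CPM in Arid1a KO and 2 counts in WT, a ratio of 109 with a counting interval of 29.9 to 903. Cenpf, a kinetochore protein, was at 14.3 and 6.29 CPM against 0 and 0.158 CPM (log2 6.44, SE 1.26, edgeR adjusted p = 0.0187). The 30 genes summed to 385 and 251 CPM in Arid1a KO and to 35.1 and 36.8 CPM in WT. The number that passed was 4 without Arid1a KO replicate 1, 2 without WT replicate 1 and 0 without WT replicate 2. The models of Ccna2 and Exosc9 and of Foxm1 and Tex52 overlap. In tissue RNA, more cells of a type or state and more RNA per cell cannot be told apart.

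A match to the cell cycle genes homology region (TTTGAA on either strand), an element of promoters that are active in G2 and mitosis, was present in the 250 bases before the start site of 10 of the 25 mitosis genes with a RefSeq promoter, and of 13.7% of the 12242 tested genes with one. The CCAAT box (CCAAT on either strand) was present in 19 of the 25, and in 39.8% of all. Both are descriptions of letters in this window, not of bound sites. The windows below come from RefSeq on GRCm38.p6 and show, of the rising mitosis genes with TTTGAA, the 3 with the largest log2 change, 120 bases each, 5′ to 3′ on the strand of the gene, with TTTGAA or its reverse complement in capitals. Cdc20, the activator of the anaphase-promoting complex, is at chr4:118437344-118437463 (minus strand), Kif2c, a kinesin that depolymerises microtubules, at chr4:117178813-117178932 (minus strand), and Ccnb2, the second mitotic B cyclin, at chr9:70421659-70421778 (minus strand).
Cdc20: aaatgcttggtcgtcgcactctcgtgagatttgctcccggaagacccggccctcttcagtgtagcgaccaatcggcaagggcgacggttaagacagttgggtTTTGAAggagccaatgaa
Kif2c: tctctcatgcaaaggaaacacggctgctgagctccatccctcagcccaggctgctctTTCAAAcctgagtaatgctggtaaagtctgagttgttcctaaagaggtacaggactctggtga
Ccnb2: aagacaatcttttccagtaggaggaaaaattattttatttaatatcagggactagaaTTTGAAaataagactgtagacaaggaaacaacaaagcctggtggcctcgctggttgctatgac
The match lies 12 bases before the start site in Cdc20, 97 in Kif2c and 161 in Ccnb2. Cdc20 was at 33.4 and 24 CPM in Arid1a KO and 0.717 and 0.553 CPM in WT. Kif2c was at 7.38 and 4.06 CPM against 0.239 and 0.118 CPM, and Ccnb2 at 9.26 and 8.42 CPM against 0.359 and 0.474 CPM. All 3 lost their call without WT replicate 2, Cdc20 and Kif2c also without Arid1a KO replicate 1, and each of the 3 also without WT replicate 1.

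Genes of DNA replication moved less evenly than those of mitosis. Of 30 measured members 9 rose and 1 fell, against 3.05% of all genes called higher and 1.91% called lower. Their median log2 change was 1.15. Mcm6, a subunit of the replicative helicase, was at 21 and 43.8 CPM in Arid1a KO and 3.71 and 1.38 CPM in WT (log2 3.80, SE 0.65, edgeR adjusted p = 0.0106). Mcm5, another subunit, was at 10.1 and 22.6 CPM against 1.67 and 2.21 CPM, and Uhrf1, which guides methylation of newly made DNA, at 6.82 and 19.3 CPM against 0.478 and 0.474 CPM. For these genes the higher Arid1a KO liver was replicate 2, the reverse of the mitosis genes. Mcm10, a replication factor, fell from 227 and 239 CPM to 26.7 and 62.2 CPM (log2 -2.39, SE 0.33, edgeR adjusted p = 0.00514), and its level in WT was far above that of the other members. In the list of cell cycle kinases, cyclin D and their inhibitors 3 of 14 rose and 0 fell. Ccnd1 (cyclin D1), which starts the cycle in hepatocytes, was at 152 and 148 CPM against 18.3 and 25.2 CPM (log2 2.78, SE 0.63, edgeR adjusted p = 0.0326). Cdk6, its kinase partner, was at 77.7 and 61.5 CPM against 41.5 and 37 CPM, and Rbl1, the pocket protein p107, at 9.75 and 10.1 CPM against 3.35 and 2.29 CPM. Cdkn2b, the inhibitor p15, was at 2.65 and 1.08 CPM against 0.239 and 0.276 CPM and did not pass (edgeR adjusted p = 0.0729). The replication count was 1 without Arid1a KO replicate 2 or WT replicate 1 and 0 without WT replicate 2, and that of the kinase list was 0, 1, 0 and 0 without Arid1a KO replicates 1 and 2 and WT replicates 1 and 2. Mcm5 and Uhrf1 were lost with each of Arid1a KO replicate 2, WT replicate 1 and WT replicate 2, and Mcm6 with the last.

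**Figure D2:**
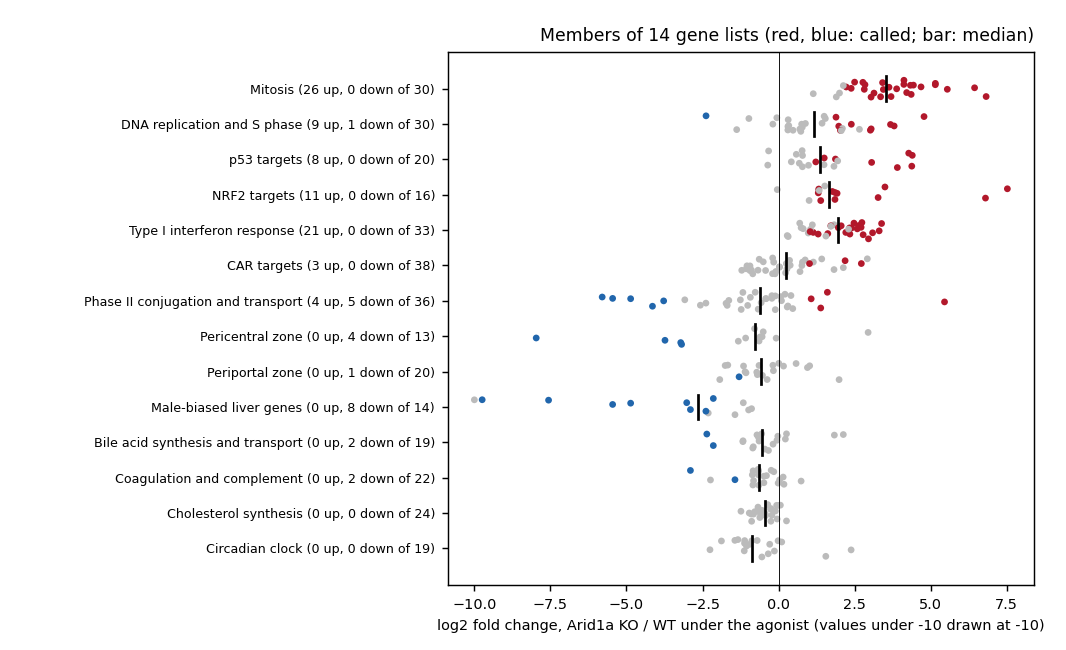
Each point is a measured member of 1 of 14 gene lists, at its log2 fold change of Arid1a KO over WT under the agonist, with members that passed in red (higher) or blue (lower), the others in grey and the list's median as a bar. The mitosis list has its median at 3.53 and 26 of 30 members in red, and the male-biased list has its median at -2.64 and 8 of 14 in blue.

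Targets of p53, the DNA damage response factor that halts the cycle, were higher in Arid1a KO in 8 of 20 measured members, and 0 fell. Of all genes 3.05% were called higher. The median log2 change of the list was 1.36. Cdkn1a, the cyclin-dependent kinase inhibitor p21 on chromosome 17 at 29090976 to 29100727, was at 138 and 68.5 CPM in Arid1a KO and 8.13 and 2.37 CPM in WT (log2 4.39, SE 0.79, edgeR adjusted p = 0.0137). Eda2r, a death receptor of the TNF family, was at 19.6 and 14.3 CPM against 1.43 and 0.513 CPM (log2 4.28, SE 0.60, edgeR adjusted p = 0.00543). Phlda3, an inhibitor of AKT, was at 21.8 and 22.4 CPM against 1.67 and 1.34 CPM (log2 3.90, SE 0.60, edgeR adjusted p = 0.00767). The Arid1a KO livers were close to each other for Eda2r and Phlda3 and differed for Cdkn1a. Zmat3, an RNA-binding factor, was at 49 and 39.3 CPM against 13.5 and 10.8 CPM, and Aen, a nuclease, at 45 and 52.6 CPM against 18.8 and 15.9 CPM. The number that passed was 4 without Arid1a KO replicate 1 and 0 without WT replicate 2, and Cdkn1a was among those lost in both fits.

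NRF2 targets, the genes that protect against oxidants and electrophiles, were higher in Arid1a KO. Of 16 measured members 11 rose and 0 fell, against 3.05% of all genes called higher, and the median log2 change was 1.64. The 16 genes summed to 6921 and 5042 CPM in Arid1a KO and 2177 and 1875 CPM in WT. Srxn1 (sulfiredoxin), which repairs peroxiredoxins, is on chromosome 2 at 152105516 to 152111376 and was at 1034 and 757 CPM in Arid1a KO and 79.2 and 79.6 CPM in WT (log2 3.49, SE 0.47, edgeR adjusted p = 0.0046). Slc7a11 was at 98.3 and 14.7 CPM against 0.359 and 0.276 CPM (log2 7.52, SE 1.10, edgeR adjusted p = 0.00618). Replicate 1 was thus several times replicate 2 in Arid1a KO, and both were far above WT. Gclc, the catalytic subunit of glutathione synthesis, was at 1930 and 1109 CPM against 501 and 341 CPM (log2 1.85, SE 0.30, edgeR adjusted p = 0.00966). Nqo1, a quinone reductase, was at 76.4 and 73.5 CPM against 7.05 and 8.37 CPM (log2 3.27, SE 0.75, edgeR adjusted p = 0.0335). Cbr3, a carbonyl reductase, was at 199 and 92.9 CPM against 0.837 and 1.58 CPM (log2 6.80, SE 1.16, edgeR adjusted p = 0.0106). Gsr (glutathione reductase) was at 247 and 276 CPM against 99 and 113 CPM. The genes thus span glutathione synthesis and reduction, peroxide repair and carbonyl reduction. In each the groups did not overlap, which held for all 883 called genes. The number that passed was 4 and 7 without Arid1a KO replicates 1 and 2, and 5 and 0 without WT replicates 1 and 2. Nqo1 lost its call without any 1 of the 4 libraries, Cbr3 without any but Arid1a KO replicate 2, Gclc without Arid1a KO replicate 1 or WT replicate 2, Gsr without either WT library, and Srxn1 and Slc7a11 without WT replicate 2.

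The antioxidant response element, searched as TGACNNNGC on either strand, was present in the 250 bases before the start site of 5 of the 12 NRF2 targets with a RefSeq promoter and of 13.7% of all tested genes with one. The 3 rising members that hold it are shown because they carry the element bound by NRF2 dimers in the textbook account, with matches in capitals, 120 bases each, 5′ to 3′ on the strand of the gene, from RefSeq on GRCm38.p6. Htatip2 (chr7:49759392-49759511, plus strand) encodes an oxidoreductase, G6pdx (chrX:74428881-74429000, minus strand) glucose-6-phosphate dehydrogenase, and Ugdh (chr5:65435873-65435992, minus strand) the enzyme that makes UDP-glucuronate.
Htatip2: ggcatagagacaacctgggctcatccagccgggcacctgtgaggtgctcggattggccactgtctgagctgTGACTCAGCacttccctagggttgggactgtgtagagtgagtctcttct
G6pdx: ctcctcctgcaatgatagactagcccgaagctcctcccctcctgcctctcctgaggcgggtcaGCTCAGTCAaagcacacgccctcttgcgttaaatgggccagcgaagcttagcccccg
Ugdh: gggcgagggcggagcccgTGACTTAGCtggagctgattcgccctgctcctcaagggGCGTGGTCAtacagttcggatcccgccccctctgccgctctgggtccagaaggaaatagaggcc
Htatip2 was at 185 and 177 CPM in Arid1a KO and 53.5 and 42.2 CPM in WT (log2 1.92, SE 0.29, edgeR adjusted p = 0.0066). G6pdx was at 34.8 and 23.4 CPM against 10.3 and 6.12 CPM, and Ugdh at 910 and 863 CPM against 385 and 326 CPM. All 3 lost their call without WT replicate 2, G6pdx and Ugdh also without Arid1a KO replicate 1, and Ugdh also without either of the other libraries.

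Interferon-stimulated genes were higher in Arid1a KO under the agonist, and some also passed under vehicle. All 33 measured members of the type I interferon list had a positive log2 change. Of them 21 rose and 0 fell, against 3.05% of all genes called higher. The median was 1.96 under the agonist and 1.79 under vehicle at 30 days. There 10 rose, against 0.286% of all genes called higher under vehicle. Irf7, the transcription factor that amplifies the response, was at 249 and 272 CPM in Arid1a KO and 53.7 and 33.4 CPM in WT (log2 2.59, SE 0.31, edgeR adjusted p = 0.00285). Isg15, the ubiquitin-like modifier, was at 65.8 and 69.4 CPM against 13 and 11.4 CPM (log2 2.48, SE 0.30, edgeR adjusted p = 0.00285). Ifi27l2a was at 28.9 and 23.9 CPM against 6.45 and 4.22 CPM, and Oas1a, a sensor of double-stranded RNA, at 29.5 and 38.1 CPM against 8.25 and 2.64 CPM. The Arid1a KO libraries lay close together for Irf7 and Isg15. Among guanylate-binding GTPases and antigen presentation genes 4 of 24 rose and 0 fell, namely Gbp2, Gbp3, Gbp9 and Tap1. Gbp3 was at 51 and 53 CPM against 15.2 and 11 CPM, and Tap1, the peptide transporter, at 69.9 and 73.4 CPM against 35.1 and 38.8 CPM. Of 17 chemokines Cxcl14 rose (3 members with the replicate number as a block), with 5.85 and 3.96 CPM against 1.43 and 0.671 CPM. The interferon count was 5 and 12 without Arid1a KO replicates 1 and 2 and 11 and 2 without WT replicates 1 and 2. The GTPase count was 1, 2, 1 and 0 in the same order, and Cxcl14 passed in none of these 4 fits. Irf7 overlaps Phrf1, Tap1 overlaps Psmb9, Gbp9 overlaps Gbp4 and Gbp8, and the Gbp and Oas families have near-identical members that can share reads.

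The interferon-stimulated response element, searched on either strand as GAAA, any pair of bases and GAAA again, with overlapping matches counted, was present in the 250 bases before the start site of 11 of the 23 interferon genes with a RefSeq promoter and of 3.32% of all tested genes with one. Of the rising members that hold it, the 3 with the largest log2 change are shown to let the repeats be seen, 120 bases each, 5′ to 3′ on the strand of the gene, from RefSeq on GRCm38.p6. They are Oas1g (chr5:120887614-120887733, minus strand) and Oas3 (chr5:120777670-120777789, minus strand), oligoadenylate synthetases that activate RNase L, and Ifit3b (chr19:34607748-34607867, plus strand), an RNA-binding antiviral protein.
Oas1g: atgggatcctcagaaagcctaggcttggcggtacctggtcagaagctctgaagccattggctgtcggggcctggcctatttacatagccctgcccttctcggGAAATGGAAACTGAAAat
Oas3: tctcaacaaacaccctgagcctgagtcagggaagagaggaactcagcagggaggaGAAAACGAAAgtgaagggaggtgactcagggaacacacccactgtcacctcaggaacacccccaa
Ifit3b: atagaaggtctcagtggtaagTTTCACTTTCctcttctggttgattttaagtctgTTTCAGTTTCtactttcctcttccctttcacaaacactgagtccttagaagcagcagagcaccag
Oas1g was at 19.5 and 21.6 CPM in Arid1a KO and 3.59 and 0.987 CPM in WT. Oas3 was at 20.8 and 10.2 CPM against 2.75 and 1.42 CPM, and Ifit3b at 14.6 and 20.4 CPM against 2.63 and 1.66 CPM. All 3 lost their call without WT replicate 2 or Arid1a KO replicate 1, Oas3 and Ifit3b also without WT replicate 1, and Ifit3b also without Arid1a KO replicate 2.

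Of 38 measured established CAR targets 3 rose and 0 fell in Arid1a KO under the agonist. Beside them, 3.05% of all genes were called higher and 1.91% lower. The median log2 change of the list was 0.24. The number rising was 6 in DESeq2 and 10 with no low-count filter. Gstm2, a glutathione transferase, was at 659 and 615 CPM in Arid1a KO and 110 and 83.8 CPM in WT (log2 2.72, SE 0.27, edgeR adjusted p = 0.00169). Gstm3 was at 2734 and 2337 CPM against 771 and 345 CPM (log2 2.18, SE 0.55, edgeR adjusted p = 0.0485), and Ephx1, the microsomal epoxide hydrolase, at 1387 and 1371 CPM against 753 and 612 CPM (log2 1.02, SE 0.23, edgeR adjusted p = 0.0307). The 3 genes are conjugating or hydrolysing enzymes, and the cytochromes of the list were not among those called. Cyp3a11 was at 2780 and 2751 CPM against 6506 and 5041 CPM and did not pass (log2 -1.06, SE 0.28, edgeR adjusted p = 0.054). Gstm3 and Ephx1 lost their call without any 1 of the 4 libraries, and Gstm3 with the replicate number as a block (edgeR adjusted p = 0.054). CAR itself (Nr1i3) was at 22.7 and 46.9 CPM against 49.1 and 120 CPM (log2 -1.28, SE 0.64, edgeR adjusted p = 0.281), with replicate 1 lower in both groups, and its model overlaps Tomm40l. Of 18 xenobiotic and metabolic nuclear receptors 0 passed in edgeR, 6 had an unadjusted p under 0.05 and 1 passed in DESeq2, while 15 had a negative log2 change and the median was -0.34. Among them Hnf4a, the master regulator of hepatocyte genes, was at 624 and 713 CPM against 1073 and 1038 CPM (log2 -0.66, SE 0.21, edgeR adjusted p = 0.0975). Nr1h3, the receptor LXR alpha, was at 115 and 162 CPM against 139 and 160 CPM, which overlap (log2 -0.11, SE 0.20, edgeR adjusted p = 0.818). Of 14 LXR targets 1 rose, Pltp, the phospholipid transfer protein, with 70.9 and 48 CPM against 25.5 and 20.6 CPM, and this call was lost without any 1 of the 4 libraries.

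Phase II enzymes and transporters moved both ways, with 4 of 36 measured members higher and 5 lower and a median log2 change of -0.62. Of all genes 3.05% were called higher and 1.91% lower. Ugt3a1, a glycosyltransferase, was at 3.76 and 5.7 CPM in Arid1a KO and 68.5 and 63.1 CPM in WT (log2 -3.78, SE 0.45, edgeR adjusted p = 0.00285). Gstm4, a glutathione transferase, was at 484 and 485 CPM against 204 and 116 CPM (log2 1.60, SE 0.27, edgeR adjusted p = 0.0102). Sult2a8 and Slco1a1 were among those that fell. Without Arid1a KO replicates 1 and 2 and WT replicates 1 and 2 the numbers higher were 1, 1, 1 and 0 and the numbers lower were 3, 2, 3 and 3. Gstm4 and Sult2a8 lost their call without either replicate 1 of Arid1a KO or replicate 2 of WT, and Slco1a1 without Arid1a KO replicate 2. The Gstm, Ugt, Sult and Slco1a families have near-identical members that can share reads.

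Of 13 measured pericentral genes, which are expressed around the central vein, 4 were lower in Arid1a KO and 0 rose (1 with the replicate number as a block), against 1.91% of all genes called lower. The median log2 change was -0.79, and the other 9 did not pass. Besides Slc1a2 they were Oat (ornithine aminotransferase), Lhpp, a histidine phosphatase, and Cyp2e1, the ethanol-inducible cytochrome. Oat was at 25.5 and 28.7 CPM in Arid1a KO and 286 and 436 CPM in WT (log2 -3.73, SE 0.36, edgeR adjusted p = 0.00169). Lhpp was at 4.18 and 5.34 CPM against 36.9 and 50.4 CPM (log2 -3.19, SE 0.34, edgeR adjusted p = 0.002). Cyp2e1 was at 451 and 601 CPM against 4934 and 4854 CPM (log2 -3.22, SE 0.58, edgeR adjusted p = 0.0146). In these genes the replicates lay close together and the groups several times apart. Glul (glutamine synthetase), the innermost pericentral marker, was at 373 and 447 CPM against 753 and 987 CPM and did not pass (log2 -1.08, SE 0.34, edgeR adjusted p = 0.0937). The Wnt signal that sets this zone also induces its own feedback genes, of which Notum fell among 12, with 8.7 and 10.7 CPM against 22.6 and 39.9 CPM, and Axin2 was at 18 and 12.3 CPM against 7.29 and 9.63 CPM (log2 0.83, SE 0.54, edgeR adjusted p = 0.419). Around the portal vein 1 of 20 genes fell, Igfals, the carrier of circulating IGFs, with 57.4 and 67.3 CPM against 134 and 173 CPM, and Cps1, the entry enzyme of the urea cycle, was at 1967 and 2909 CPM against 5482 and 4992 CPM (log2 -1.10, SE 0.38, edgeR adjusted p = 0.12). Cyp2e1, Notum and Igfals lost their call without Arid1a KO replicate 1, Arid1a KO replicate 2 or WT replicate 2. Oat and Lhpp overlap Fgfr2 in the annotation.

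Of 14 measured genes that are higher in male than in female liver, 8 were lower in Arid1a KO, against 1.91% of all genes. All 14 had a negative log2 change, and the median was -2.64, the same with 1 member that had no count in Arid1a KO set at its bound. The list summed to 2301 and 3225 CPM in Arid1a KO and to 10823 and 5917 CPM in WT. Cyp2u1, a fatty acid hydroxylase, was at 2.51 and 1.83 CPM against 23.8 and 11.4 CPM (log2 -3.02, SE 0.39, edgeR adjusted p = 0.00387). Slco1a1, Hsd3b5, Ugt2b38 and Elovl3, described among the largest falls, are members too. In vehicle livers at 30 days Slco1a1 was at 846 and 173 CPM in Arid1a KO and 636 and 703 CPM in WT, and Elovl3 at 1108 and 11.8 CPM and 367 and 104 CPM, so that replicates of 1 group differed by a wide margin there. Among 17 female-biased genes 9 had a positive and 8 a negative log2 change. Their median was 0.02, or -0.11 with the replicate number as a block. They summed to 558 and 762 CPM in Arid1a KO and 210 and 752 CPM in WT, which overlap. Of the 17 genes 2 rose, against 3.05% of all genes called higher. Among the 2 was Hao2, a peroxisomal hydroxy acid oxidase. Hao2 was at 64.4 and 119 CPM against 8.61 and 12.4 CPM (log2 3.12, SE 0.61, edgeR adjusted p = 0.0186). The male-biased count was 3 and 1 without Arid1a KO replicates 1 and 2 and 3 and 4 without WT replicates 1 and 2. Elovl3 lost its call without any 1 of the 4, Hsd3b5 without either Arid1a KO library, Slco1a1 without Arid1a KO replicate 2, Ugt2b38 without Arid1a KO replicate 2 or WT replicate 1, and Hao2 without any 1 of the 4 but Arid1a KO replicate 1. The part of the clock genes given above, which also differed by replicate number, in these results was not tested.

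In the lists of secreted products and metabolic enzymes of hepatocytes at most 2 members passed, beside 3.05% of all genes called higher and 1.91% called lower, and nothing is read from these counts about the lists. Of 19 bile acid genes 2 fell, of 22 coagulation and complement genes 2 fell, and the median log2 changes of these lists were -0.56 and -0.66. Of 19 secreted proteins and identity factors 0 passed in edgeR, with 2 at an unadjusted p under 0.05 and 1 passing in DESeq2, and the median was -0.55. Cyp8b1, which sets the share of cholic acid, was at 45.2 and 102 CPM in Arid1a KO and 415 and 341 CPM in WT (log2 -2.36, SE 0.47, edgeR adjusted p = 0.0192). Cyp7b1, of the alternative bile acid pathway and also male-biased, was at 52.6 and 62.9 CPM against 237 and 275 CPM (log2 -2.15, SE 0.47, edgeR adjusted p = 0.0276). C8b, a subunit of the membrane attack complex, was at 315 and 316 CPM against 863 and 843 CPM (log2 -1.44, SE 0.24, edgeR adjusted p = 0.00991), and C6, another component, at 124 and 51.5 CPM against 880 and 427 CPM. Orm2, an acute phase glycoprotein, rose as 1 of 19 acute phase genes, with 320 and 564 CPM against 40.4 and 38.6 CPM (log2 3.49, SE 0.62, edgeR adjusted p = 0.0135). In fatty acid synthesis 1 of 21 rose and 1 fell (2 fell with the replicate number as a block). Scd2, a stearoyl-CoA desaturase that adult liver expresses little, rose from 9.68 and 11.8 CPM to 225 and 161 CPM (log2 4.16, SE 0.40, edgeR adjusted p = 0.00169), and Elovl3 fell. Acot2, a mitochondrial acyl-CoA thioesterase, rose as 1 of 27 genes of fatty acid oxidation (2 with the replicate number as a block), with 10.6 and 11.7 CPM against 1.2 and 2.8 CPM (log2 2.37, SE 0.34, edgeR adjusted p = 0.00614), and it has a near-identical copy in Acot1. C8b lost its call without Arid1a KO replicate 1 or WT replicate 2, Cyp8b1 without either of these or WT replicate 1, Orm2 without either WT library, and Cyp7b1 and C6 without any 1 of the 4, while Scd2 and Acot2 passed in each of these fits.

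**Figure D3:**
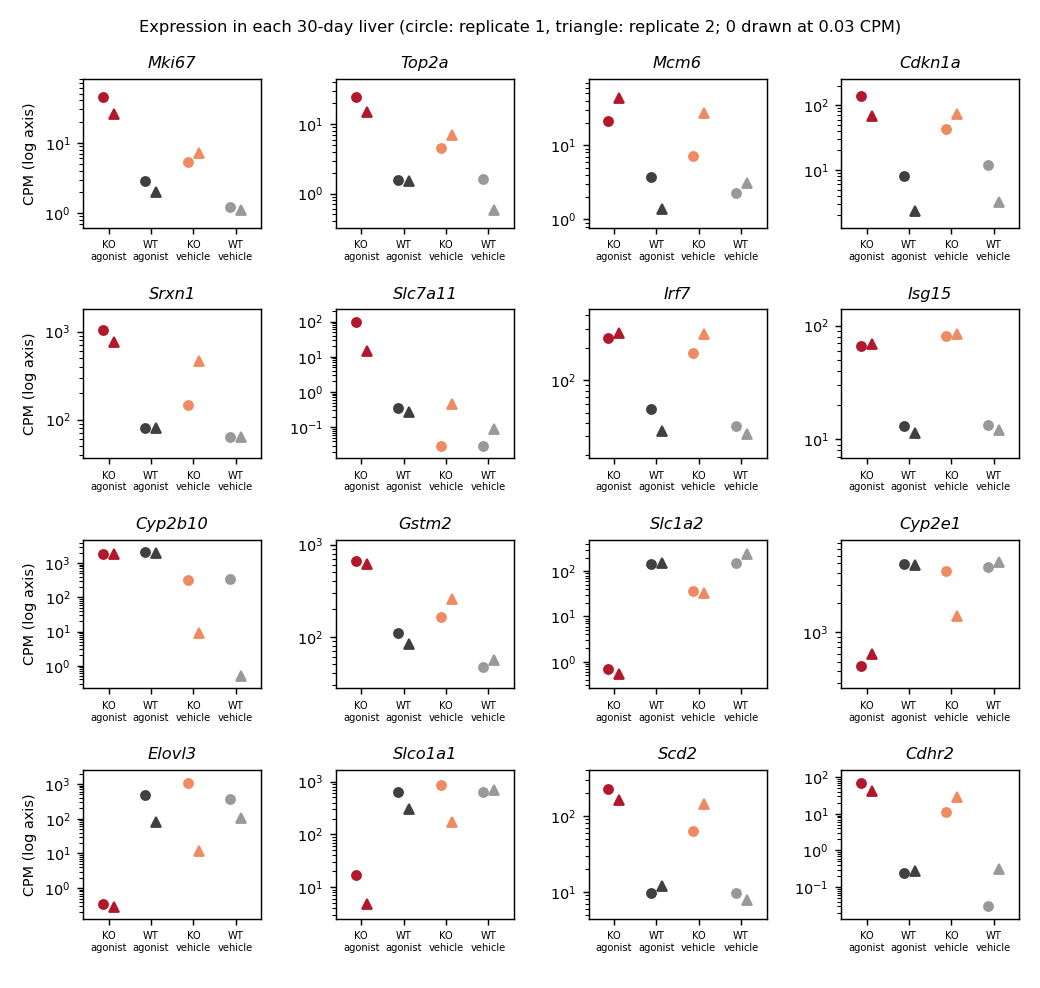
CPM of 16 genes on log axes in each of the 8 livers labelled 30 days, by genotype and treatment, with replicate 1 as a circle and replicate 2 as a triangle and a count of 0 drawn at 0.03 CPM. Slc1a2 lies below 1 CPM in both Arid1a KO agonist livers, and Cyp2b10 is high in the 4 agonist livers and in replicate 1 of both vehicle groups.

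Fetal and ectopic epithelial genes rose in part, beside 3.05% of all genes called higher and 1.91% called lower. Of 12 fetal and oncofetal genes 2 rose and 0 fell, Gpc3 (glypican-3), with 15.2 and 12.6 CPM in Arid1a KO and 1.2 and 1.66 CPM in WT (log2 3.24, SE 0.50, edgeR adjusted p = 0.00786), and H19, an imprinted RNA, with 117 and 54.5 CPM against 1.79 and 0.592 CPM (log2 6.36, SE 1.17, edgeR adjusted p = 0.0146). Alpha-fetoprotein (Afp) was at 7.45 and 7.08 CPM against 1.91 and 1.82 CPM and did not pass (log2 1.96, SE 0.84, edgeR adjusted p = 0.21), although its libraries lay apart. Of 10 keratins and cornified envelope genes 3 rose, Krt20, Sprr1a and Tff3, the last a mucosal trefoil peptide at 42.1 and 99.4 CPM against 6.93 and 3.99 CPM (log2 3.74, SE 0.54, edgeR adjusted p = 0.00614). Anxa2, a membrane-binding annexin, rose among 13 S100 and annexin genes, with 131 and 61.5 CPM against 19.6 and 12 CPM (log2 2.62, SE 0.37, edgeR adjusted p = 0.00555), and S100a13 fell, with 8.22 and 10.1 CPM against 22.1 and 27.7 CPM. Among 24 BAF and PBAF subunits 1 passed, the ATPase Smarca2, with 158 and 201 CPM against 284 and 395 CPM (log2 -0.92, SE 0.22, edgeR adjusted p = 0.0427). The alternative ATPase Smarca4 was at 102 and 116 CPM against 81.8 and 80.7 CPM and did not pass (log2 0.43, SE 0.16, edgeR adjusted p = 0.148). Smarca2 and S100a13 lost their call without any 1 of the 4 libraries, H19 without Arid1a KO replicate 1 or either WT library, Gpc3 without either WT library, and Tff3, Anxa2 and Sprr1a without WT replicate 2.

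A few markers of cholangiocytes, stellate cells and macrophages rose in the Arid1a KO livers, 1 of 11, 3 of 16 and 3 of 18. Of 11 hepatocyte markers 2 fell. Beside these counts, 3.05% of all genes were called higher and 1.91% lower. The 11 hepatocyte markers summed to 24476 and 23044 CPM in Arid1a KO and 39680 and 32861 CPM in WT, 0 rose and 2 fell, Cyp2e1 and Fah (fumarylacetoacetase, 342 and 473 CPM against 686 and 792 CPM, edgeR adjusted p = 0.0434). Both groups thus held hepatocyte markers, as the labels give the tissue. All 11 measured cholangiocyte markers had a positive log2 change and summed to 418 and 318 CPM against 89.3 and 75.4 CPM. This sum was mostly Spp1 (osteopontin), the 1 member that rose, with 332 and 219 CPM against 42.7 and 33.7 CPM (log2 2.85, SE 0.57, edgeR adjusted p = 0.0191). Of 16 stellate cell and fibroblast markers 3 rose, Col1a1, Col1a2 and Timp1, and the list summed to 1173 and 653 CPM against 447 and 492 CPM. Col1a1, the main collagen of scars, was at 78.3 and 39.3 CPM against 7.77 and 4.82 CPM (log2 3.26, SE 0.64, edgeR adjusted p = 0.0187). Of 18 macrophage markers 3 rose, Cx3cr1, Ccr2 and Gpnmb, and the list summed to 1725 and 1037 CPM against 762 and 579 CPM. Ccr2, of monocyte-derived cells, was at 20.1 and 8.94 CPM against 3.71 and 1.93 CPM (log2 2.41, SE 0.56, edgeR adjusted p = 0.0347). In these lists replicate 1 was the higher Arid1a KO liver, as it was for the mitosis genes. Of 16 endothelial, 17 lymphocyte and 11 neutrophil markers 0 passed in edgeR, with 0, 2 and 1 at an unadjusted p under 0.05 and 0, 1 and 0 passing in DESeq2, and their sums overlapped between the groups. The neutrophil sum was 56.1 and 11.6 CPM against 17.7 and 8.96 CPM. Erythroid Alas2, the first enzyme of haem synthesis in red cells, fell, and 1 of 3 measured exocrine pancreas genes rose, Cela3b, from 1 count in WT, a ratio of 99.1 with a counting interval of 17.5 to 3944. The other 2 of the 3 had a negative log2 change, and the 3 summed to 25.8 and 23.2 CPM in Arid1a KO and 44.8 and 58.4 CPM in WT. Of the 12 genes on the pancreas list 2, Try4 and Amy2b, had no count in any of the 4 livers. The part of these other cell types in the changes of the mitosis, interferon, keratin and NRF2 genes was not tested. The calls in the other cell type lists and that of Fah were lost without Arid1a KO replicate 1, without WT replicate 1 and without WT replicate 2. Those of Alas2, Col1a2, Gpnmb, Timp1 and Fah were lost without Arid1a KO replicate 2 as well. Col1a2 also lost its call with the replicate number as a block (edgeR adjusted p = 0.0538).

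**Figure D4:**
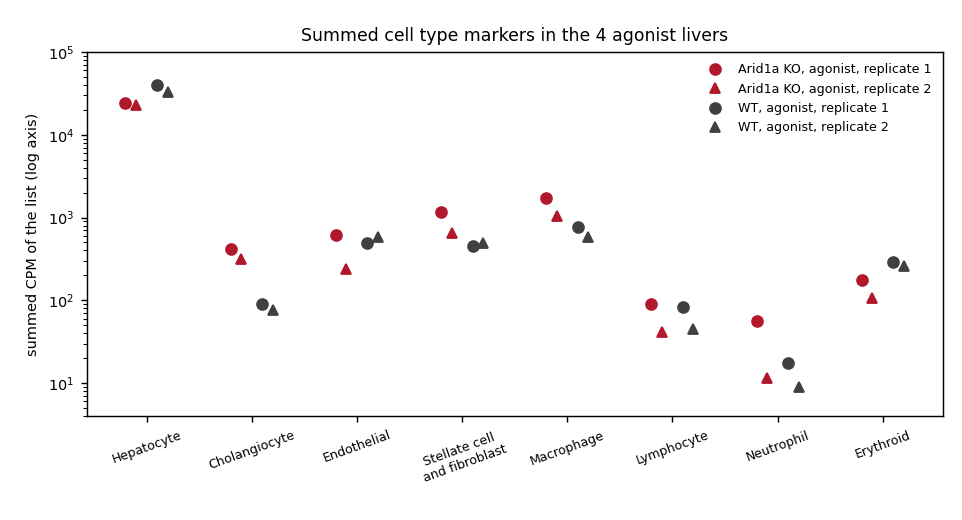
Summed CPM of the measured markers of 8 cell types (log axis) in each of the 4 agonist livers, Arid1a KO in red and WT in dark grey, with replicate 1 as a circle and replicate 2 as a triangle. The cholangiocyte and macrophage sums are higher in both Arid1a KO livers and the hepatocyte and erythroid sums lower, while the lymphocyte and neutrophil sums overlap.

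The genotype comparison under vehicle at 30 days, which shares no library with that under the agonist, called 51 genes higher and 41 lower in Arid1a KO (0.516% of those tested), a total of 92 that ranged from 1 to 177 when 1 of its 4 libraries was left out (1 without WT replicate 2, 177 without Arid1a KO replicate 1, 27 without Arid1a KO replicate 2 and 32 without WT replicate 1). Of these 92 genes 62 were also called under the agonist in the same direction, 67.4% of the vehicle calls and 7.02% of the agonist calls. Of the 883 agonist calls 806 had the same sign under vehicle, and 68.1% of all tested genes did. Under vehicle at 9 days 101 genes were called (0.566% of those tested), and 59 of them were called in the same direction under the agonist, 58.4% of the 9-day calls and 6.68% of the agonist calls. Rassf4, a RAS-association protein, was at 213 and 144 CPM in Arid1a KO and 12.2 and 13.2 CPM in WT under the agonist, and at 674 and 287 CPM against 13.4 and 11.7 CPM under vehicle. Pde9a was at 0.113 and 0.397 CPM in Arid1a KO and 36 and 18.2 CPM in WT under vehicle, and Sdr9c7 at 9.94 and 3.9 CPM against 162 and 146 CPM. Isg15 was at 81.8 and 83.8 CPM against 13.4 and 12 CPM under vehicle. So these genes differed by genotype in both settings. The mitosis list had a median log2 change of 3.53 under the agonist and 1.47 under vehicle, where 1 member rose and where it summed to 66 and 99.9 CPM in Arid1a KO and 33.9 and 33.4 CPM in WT. The NRF2 list had 1.64 and 0.87, the p53 list 1.36 and 0.66, the male-biased list -2.64 and -0.15 and the pericentral list -0.79 and -0.31. Under vehicle at 9 days the medians of these 5 lists were 0.39 (mitosis), 0.60 (NRF2), 0.55 (p53), -1.40 (male-biased) and -0.41 (pericentral), so the male-biased median was negative there too.

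The difference between the 2 genotype effects, tested gene by gene as an interaction at 30 days, passed for 1 of 17831 genes (0.00561%), or 9 with the replicate number as a block, while 995 had an unadjusted p under 0.05. That gene was Slc1a2, at 36.7 and 32.3 CPM in Arid1a KO and 151 and 242 CPM in WT under vehicle, with an interaction of -5.45 (log2, SE 0.54, edgeR adjusted p = 0.0129). Its adjusted p was 0.112 without Arid1a KO agonist replicate 1, 0.163 without Arid1a KO agonist replicate 2 and 0.0601 without WT agonist replicate 2. Leaving out 1 of the 8 libraries at a time gave between 0 and 23 genes, the most without Arid1a KO vehicle replicate 2. Susd4, at 72 and 30.6 CPM in Arid1a KO and 42.4 and 56.9 CPM in WT under vehicle, missed the threshold (interaction -5.47, SE 0.80, edgeR adjusted p = 0.0798). For the other genes named above, a larger change under the agonist than under vehicle at 30 days is therefore not shown. With the 9-day vehicle livers as the reference, Acot2 also passed (interaction 3.79, SE 0.47, edgeR adjusted p = 0.0387). So did Sox4, not named above (interaction 4.69, SE 0.55, edgeR adjusted p = 0.0377). Cyp2b10 was at 320 CPM in replicate 1 and 8.84 CPM in replicate 2 of the Arid1a KO vehicle livers, and at 350 and 0.494 CPM in those of WT, so that 1 vehicle liver of each genotype had a level between the other vehicle liver and the agonist livers. Leaving out both of these replicate 1 livers, an alternative chosen after seeing the data, left 0 genes with an interaction in edgeR (720 at an unadjusted p under 0.05), and Slc1a2 at -5.05 (edgeR adjusted p = 0.0552).

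**Figure D5:**
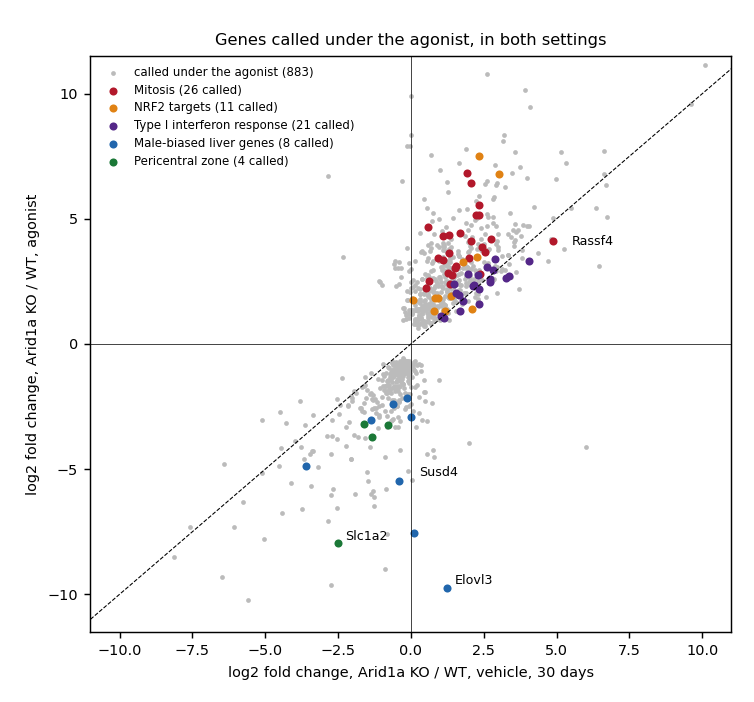
Log2 fold change of Arid1a KO over WT under vehicle at 30 days (horizontal) and under the agonist (vertical) for the 883 genes called under the agonist, with called members of 5 lists in colour and equal change as a dashed line. The 26 mitosis genes lie above the line but for 1, the interferon genes near it, and Slc1a2 lies at -2.51 and -7.97.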

How the data were processed

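Bulk RNA-seq of 16 mouse libraries was used, 14 from liver and 2 from tumours labelled Arid1a KO/BcatEXON. The 14 liver libraries, from 7 groups of 2, entered the fits. Besides the WT and Arid1a KO groups these include the Arid1a and Arid1b double KO livers, which also feed the shared estimate of spread. The tumours were left out of the main fit as another tissue. The authors deposited raw counts per gene symbol, made with fastp, STAR 2.7.3 and featureCounts on GRCm38.p6, per the submitters' processing notes, while no source used here states the annotation or the strand setting. The authors also deposited a normalized signal, which equals the counts times 1 factor per library and served for 1 alternative. RNA was taken with Trizol and columns and made into TruSeq libraries, per the labels' protocols. The labels call the 2 samples of a group biological replicates and tie no replicate number to a shared animal, litter or day. Among the 4 groups labelled 30 days, same-numbered libraries deviated together in 6 of 6 pairs of groups (correlation 0.17 to 0.366), and among all 7 groups 11 of 21 pairs exceeded 0.1. The main fit has no replicate block, and the values given are from it unless marked. A block on the replicate number was fitted as an alternative, over all 14 libraries and not over the 30-day livers alone. No fit paired only the 30-day livers, so the blocked values do not describe such a pairing. They were added beside some calls and counts after the fits had been compared.

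Counts were filtered with filterByExpr, scaled by TMM and tested with edgeR 4.0.16 (quasi-likelihood, 7 residual degrees of freedom, R 4.3.3), with Benjamini-Hochberg adjustment over 17831 genes and a threshold of 0.05. The square root of the common dispersion was 29.3%. Intervals and floors (3 counts, 95% intervals) cover counting error only. Alternatives were RLE scaling, no filter, DESeq2 1.42.0, limma 3.58.1 on log2 of the normalized signal plus 1, a replicate block, other sets of libraries and leaving out each library. The alternative with all 16 libraries adds the tumours to the livers. The code was tested on simulated data.

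The comparison, the gene lists and the rules were chosen with earlier results of these data known. Named genes were the 15 largest rises and 15 largest falls among called genes whose 4 libraries averaged 2 CPM or more, with no overlap between groups and no predicted symbol, up to 4 with the smallest p per list, interaction calls and a set followed for the design. Cdkn1a, Nqo1, Gclc, Cdc20 and Foxm1 were named after their values were seen, as were the promoter genes, and some members of the lists are not reported here. Positions and overlapping models were read from GENCODE M21, where 96.4% of the 55291 symbols were found. Promoters of 12242 tested genes came from RefSeq.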

Additional observations from a re-analysis of the deposited data

Results flagged for a closer look

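Slc1a2 was the gene whose genotype difference under the agonist differed from that under vehicle at 30 days by the interaction test. The interaction was -5.45 (log2, SE 0.54, edgeR adjusted p = 0.0129). With the 9-day vehicle livers as the reference, where Slc1a2 was at 157 and 78.3 CPM in Arid1a KO and 218 and 230 CPM in WT, it was -7.04 (SE 0.55, edgeR adjusted p = 0.00114). Across its alternatives the value ranged from -7.04 to -5.05, in 1 direction, and the adjusted p passed in all but those named with the result above.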

How the results depend on the processing

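The 883 genes called under the agonist kept their direction under each alternative in which they were tested, 9 not being tested with only the 4 libraries in the fit. Leaving out 1 library could not reverse it, since the groups did not overlap for any of the 883. Of 543 rising and 340 falling genes, no filter gave 1522 and 946, DESeq2 1044 and 811, all 16 libraries 419 and 223, and leaving out 1 library 22 to 334 and 52 to 137. The interaction, 1 gene, gave 493 with no filter, 132 in DESeq2, 6 in limma, 3 with the 9-day reference, 0 without both replicate 1 vehicle livers (chosen after seeing the data) and 0 to 23 without 1 library. The 92 vehicle calls became 942, 421, 0 (only their 4 libraries, edgeR, 1048 at an unadjusted p under 0.05), 52 (all 16) and 1 to 177 without 1 library. Of the 883 calls 879 remained with RLE, 860 in DESeq2, 868 in limma, 494 with only the 4 libraries and 634 with all 16. Of 110 called genes named above, 23 to 76 remained without 1 library. The log2 change of Nr1h3, not called, ranged from -0.38 to 0.12 without 1 library and so changed sign. The medians of the endothelial, lymphocyte and erythroid lists were positive without Arid1a KO replicate 2. The cause of these differences was not tested. With 2 libraries per group and a lowest depth of 9.38 M counts, levels near 0.359 CPM are not resolved.

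With a replicate block over all 14 libraries 666 genes were higher, 480 lower, 9 had an interaction and 93 differed under vehicle, and 868 of the 883 remained. Rising members became 11 in the p53 list (8 without the block), 10 in replication (9) and 22 in interferon (21). The GTPase list had 5 (4) and the keratin list 4 (3). In phase II 3 rose (4) and 7 fell (5), and the CAR and stellate cell lists had 2 rising each (3). The block ended the calls of Gstm3, Chac1 and Col1a2 and changed no other call among the named genes.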

Other observations

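Some fixed lists outside the comparisons above had few or no called members under the agonist, beside 3.05% of all genes called higher and 1.91% called lower. Of 22 genes of the unfolded protein and integrated stress response 1 rose and 1 fell. Atf3, a stress-induced transcription factor, was at 13.7 and 8.42 CPM in Arid1a KO and 0.956 and 0.513 CPM in WT (log2 4.02, SE 0.63, edgeR adjusted p = 0.00794). Chac1, which degrades glutathione, was at 0.905 and 0.295 CPM against 9.2 and 7.14 CPM (log2 -3.87, SE 0.98, edgeR adjusted p = 0.0476). Atf3 lost its call without WT replicate 2, and Chac1 without any 1 of the 4 libraries and with the replicate number as a block (edgeR adjusted p = 0.0547). Of 20 genes of glycolysis and gluconeogenesis 1 fell, Pfkfb3, the maker of the glycolytic activator fructose-2,6-bisphosphate, at 21 and 17.7 CPM against 73.5 and 74.6 CPM (log2 -1.94, SE 0.24, edgeR adjusted p = 0.00336), a call kept without any 1 of the 4 libraries.

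Of 24 genes of cholesterol synthesis 22 had a negative log2 change with a median of -0.43, and 0 passed in edgeR, with 2 at an unadjusted p under 0.05 and 2 passing in DESeq2. Of 16 YAP and TAZ targets 0 passed in edgeR, with 6 at an unadjusted p under 0.05, each higher in Arid1a KO, and 4 passing in DESeq2. Of 13 MAPK feedback genes 0 passed in edgeR, with 2 at an unadjusted p under 0.05 and 1 passing in DESeq2.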
